A study of Mus musculus with 32 samples.

Results

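The 34 genes described here carry a fatty acid from the surface of the brown fat cell to the respiratory chain. They comprise proteins of uptake and binding, acyl-CoA synthetases, acyl-CoA thioesterases, the carnitine shuttle and the enzymes of mitochondrial β-oxidation. They were chosen by symbol, all 34 symbols matched 1 row of a count table of 50686 genes, and all 34 passed the filter on low counts that left 15505 genes to test.

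RNA-sequencing was done on interscapular brown adipose tissue (iBAT) of male C57BL/6J mice, 10 weeks old, fed chow and not fasted. Mice lived at 22 °C, which is mild cold for a mouse, with 12 h of light and 12 h of darkness. Time is written as Zeitgeber Time (ZT) in hours after lights on, so light gave way to darkness at ZT12. Tissue was taken at 8 time points, 3 h apart, from 4 different mice each, and no mouse was sampled at more than 1 time, so a profile over the day is a profile over animals.

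Fatty acids enter the cell with the help of CD36 and the FATP proteins, are held in the cytosol by fatty acid binding proteins, and are activated to acyl-CoA by the ACSL enzymes. Carnitine palmitoyltransferase 1 (CPT1) on the outer mitochondrial membrane, the step blocked by malonyl-CoA, commits the acyl chain to the matrix, where each turn of the β-oxidation spiral removes a piece of the chain as acetyl-CoA and passes electrons to the respiratory chain. In brown fat the oxidation of fatty acids fuels heat production, because uncoupling protein 1 lets the proton gradient collapse.

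Library totals lay between 16300770 and 18254659 counts, and 2.5 to 3.17% of the counts of a library fell on the 34 genes. Levels are TMM-scaled counts per 1000000 reads (CPM), and the error of a mean is the SD of its 4 mice. By their labels, lane 2 carried the first 3 time points (ZT0 to ZT6), lane 3 the next 3 (ZT9 to ZT15) and lane 4 the last pair, so time of day and lane cannot be told apart between lanes. All 8 brown adipocyte markers were detected, with a summed level of 4300 to 8271 CPM. The 12 skeletal muscle markers summed to 4.34 CPM in the lowest library and 7803 CPM in the highest, and 15 libraries exceeded 1000 CPM. By time point, the mean muscle sum was lowest at ZT6 (491 CPM) and highest at ZT15 (3720 CPM). The counts of members called by the cosine, by the test of the 8 time points and by JTK were therefore also taken without those 15 libraries, which left 1 to 3 mice per time point. In such bulk tissue, fewer cells of a type and less RNA per cell cannot be told apart.

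A minority of the members followed the time of day, and most of these belong to the supply of fatty acids to the mitochondrion. A 24 h cosine was fitted to each gene with edgeR, and an adjusted p (Benjamini-Hochberg over all 15505 genes) under 0.05 was called. It was called for 10 of the 34 members (29.4%), against 36.1% of all genes tested. Of the 17 genes of uptake, activation, thioesterases and mitochondrial entry, 8 were called, and of the 17 dehydrogenases, spiral enzymes and electron carriers, 2 were called. The difference between these groups was not tested. The median amplitude, which is the fitted distance from the daily mean to the peak on the log2 scale, was 0.14 in the first group and 0.06 in the second, beside 0.14 over all genes tested. The test for any difference between the 8 time points called 7 members, all among those 10, against 39.8% of all genes. DESeq2 called 10 members in this test, with Acsl3, Cd36 and Etfa added, against 45.2% of all genes. Of the 7, Acot2 was lost with the replicate block and in most fits that left out 1 library, Acsl4 with no filter and without ZT15 replicate 1 or 2 or ZT21 replicate 1, 2 or 4, and Fabp3 without ZT15 replicate 1.

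**Figure D1:**
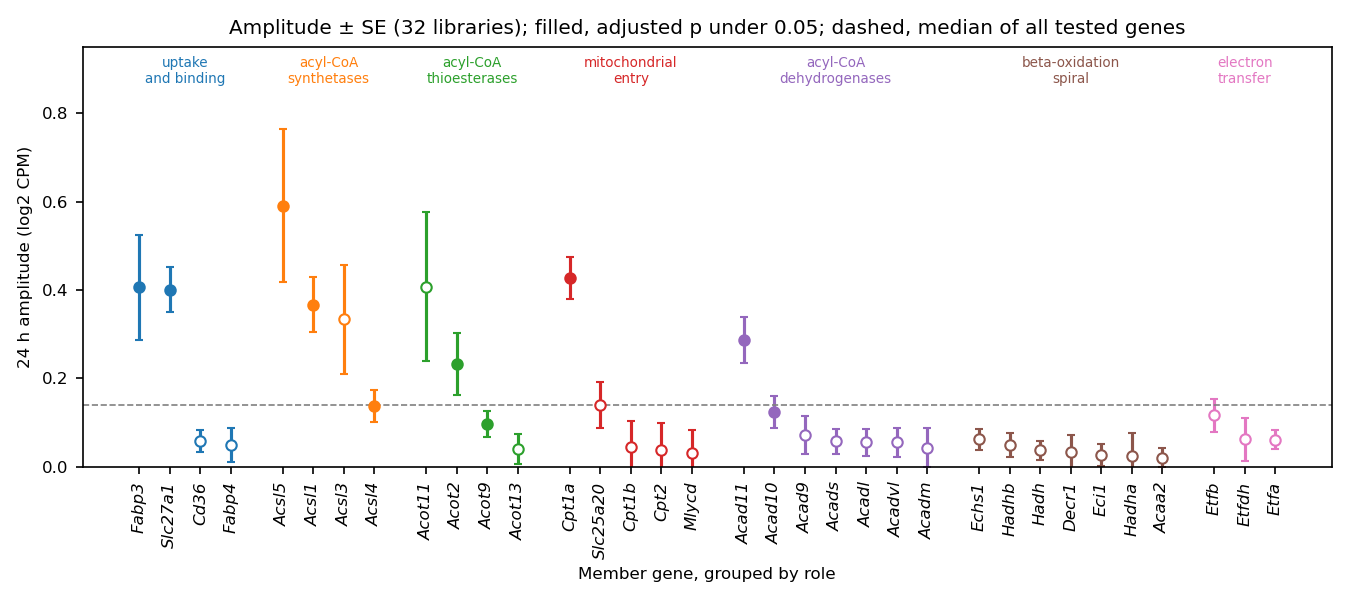
The 24 h amplitude (log2 CPM, vertical axis) of each of the 34 members, grouped by role along the horizontal axis, with its SE from 32 libraries. Filled points passed an adjusted p of 0.05, the dashed line is the median of all genes tested (0.14), and the spiral enzymes lie between 0.02 and 0.06.

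With lane as an additional factor in the cosine fit, Slc27a1, Acsl1 and Cpt1a remained called, which is 3 of 34 members, beside 17.2% of all genes. Without the 15 libraries rich in muscle transcripts, 7 members were called, 6 of them from the list of 10, beside 18.5% of all genes, and Acad10, Acot2, Acot9 and Acsl4 were lost. The test of the 8 time points then called 2 members, beside 10.1% of all genes. JTK, the rank test the study used, called 10 members at P under 0.05 against 36.4% of all genes, and 7 of these were also called by the cosine. With its exact null, JTK did not call Fabp3 (P = 0.0961), Acot2 (P = 0.0862) or Acad10 (P = 0.0551), which the cosine called. Of the 10, Acsl3, Acsl4, Acsl5, Etfb and Slc25a20 were each lost in some fits that left out 1 library. At an adjusted p under 0.05, JTK called 5 members, beside 27.1% of all genes.

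Among the genes of uptake, Slc27a1 followed the day and Cd36 and Fabp4 did not pass the test. Slc27a1 encodes FATP1, a fatty acid transport protein with acyl-CoA synthetase activity (chr8:71568882-71587302, plus strand, GRCm38). At ZT6 its level was 197, 289, 227 and 295 CPM in the 4 mice. At ZT9 the mice stood at 323, 357, 219 and 232 CPM, and at ZT18 at 144, 137, 149 and 142 CPM. Every mouse of ZT6 and of ZT9 lay above every mouse of ZT18. The means were 283 ± 67.5 CPM at ZT9 and 143 ± 5 CPM at ZT18, a ratio of 1.98. The cosine had an amplitude of 0.40 ± 0.05 (SE, log2) and a peak at ZT7.94 ± 0.476 h (adjusted p = 6.72e-07). Between ZT18 and ZT6 the log2 fold change was -0.82 ± 0.13 (SE, adjusted p = 0.000138). With lane in the model the adjusted p was 0.000577, and over all alternatives it ran from 1.52e-13 to 0.00355. Within single lanes edgeR did not call Slc27a1 (adjusted p = 0.0913 in lane 2, 0.0972 in lane 3 and 0.15 in lane 4), but DESeq2 called it in lanes 2 and 3. edgeR called it without ZT6 replicate 1 in lane 2, without ZT9 replicate 3 in lane 3 and without ZT21 replicate 2 in lane 4.

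Fabp4, the adipocyte fatty acid binding protein, was the most abundant member per kilobase of transcript and held 39.8% of the members' summed level on that scale (6751 CPM per kb). It ranged from 5426 ± 459 CPM at ZT3, where the mice had 5295, 6070, 5354 and 4984 CPM, to 6519 ± 546 CPM at ZT0, where they had 6791, 7129, 6248 and 5907 CPM. The mice of those times overlapped, and the cosine gave an adjusted p of 0.596 with an amplitude of 0.05 ± 0.04. Cd36, the main long-chain fatty acid translocase, had its highest mean at ZT9 (2152 CPM) and its lowest at ZT18 (1786 CPM), a ratio of 1.2 (cosine adjusted p = 0.164). The mice of those times did not overlap (2028 to 2290 CPM and 1660 to 1834 CPM). In the test of the 8 time points Cd36 had an adjusted p of 0.0785 with edgeR. DESeq2 called it there, as did edgeR without ZT6 replicate 4.

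Fabp3, the heart and muscle type binding protein, was called by the cosine (amplitude 0.41 ± 0.12, peak at ZT11.7 ± 1.12 h, adjusted p = 0.0119). Its values were 533, 291, 351 and 374 CPM at ZT15, against 160, 161, 256 and 174 CPM at ZT18. Those mice did not overlap, but at ZT9 the mice spread from 150 to 479 CPM and covered most of the range of the day. The cosine was not called beside lane (adjusted p = 0.921), and 19.6% of the exonic bases of Fabp3 lie antisense to another gene. As Fabp3 is also a muscle gene, the muscle markers were set beside it, and its relation to endothelial markers is given with that to Acsl5. Within time points, Fabp3 and the summed muscle markers had r = 0.052 (permutation p = 0.812, rho = 0.150 with permutation p = 0.47, 32 mice), and r = 0.226 without the 2 mice farthest from the median of Fabp3. Within lanes 2, 3 and 4 that r was 0.018, -0.019 and 0.355. As deviations from time point means, these values do not speak to the profile over the day. Over the day both had their highest mean at ZT15 (Fabp3 387 CPM, muscle markers 3720 CPM). The lowest mean of Fabp3 fell at ZT18 (188 CPM) and that of the muscle markers at ZT6 (491 CPM). Fabp3 was also called without the libraries rich in muscle transcripts, and the part of muscle in its daily profile was not tested.

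Of the 4 long-chain acyl-CoA synthetases, 3 were called by the cosine, beside 36.1% of all genes, and 1 with lane in the model, beside 17.2%. JTK called 4 at P under 0.05, beside 36.4% of all genes, and 1 at an adjusted p under 0.05, beside 27.1%. Their peaks fell at different times of day. Acsl1, the main synthetase of fat cells (chr8:46471037-46536051, plus strand), was high late in the light phase. At ZT9 the mice had 3039, 3086, 1738 and 2189 CPM, and at ZT12 3100, 2569, 2106 and 1885 CPM. At ZT18 they had 1200, 1347, 1459 and 1680 CPM. All 8 mice of ZT9 and ZT12 exceeded the 4 of ZT18, and the mice of ZT9 and ZT12 differed widely among themselves. The amplitude was 0.37 ± 0.06, with a peak at ZT8.56 ± 0.657 h (adjusted p = 6.4e-05). Acsl1 rose from ZT0 to ZT12 by 0.52 ± 0.16 (log2, adjusted p = 0.0261) and was lower at ZT18 than at ZT6 (log2 fold change -0.54 ± 0.16, adjusted p = 0.0198). The first of these was lost without ZT0 replicate 2 or 4 or ZT12 replicate 1 or 2 (adjusted p up to 0.113), and with the 8 libraries alone, and its mice overlapped (ZT0 up to 1917 CPM, ZT12 from 1885 CPM). The second was lost without ZT6 replicate 4 or ZT18 replicate 1 or 2 (up to 0.0762). The brown adipocyte markers averaged 6122 CPM at ZT6 and 4853 CPM at ZT18, and 6309 CPM at ZT0 and 6500 CPM at ZT12. The 5 white adipocyte markers averaged 57 and 183 CPM, and 160 and 182 CPM, at the same times. The part of the markers in these contrasts was not tested. The cosine was called under every alternative, with an adjusted p from 1.37e-07 to 0.0149, the highest being that with lane in the model.

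Acsl5, a synthetase of the outer mitochondrial membrane and endoplasmic reticulum, ran the other way, with the largest amplitude of the members (0.59 ± 0.17, peak at ZT23.1 ± 1.12 h, adjusted p = 0.0205). At ZT0 its values were 660, 447, 623 and 203 CPM, and at ZT15 54.2, 277, 225 and 261 CPM. These mice overlapped, since the fourth mouse of ZT0 was lower than 3 of the mice of ZT15. The test of the 8 time points did not call it (adjusted p = 0.121), and the SD between mice of one time point, 0.71 on the log2 scale, was the largest of the 34 members. Acsl4, which prefers arachidonic acid, was low and moved little in size (24.4 ± 1.71 CPM at ZT15, 32.1 ± 2.36 CPM at ZT21). Its mice were at 22, 24.5, 25.5 and 25.8 CPM at ZT15 and at 31.4, 35.3, 29.7 and 32.3 CPM at ZT21, with no overlap (cosine adjusted p = 0.0116, peak at ZT22.5 ± 1.02 h). Neither Acsl5 nor Acsl4 was called beside lane, nor Acsl4 without the libraries rich in muscle transcripts.

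Acsl3, a synthetase found on lipid droplets, missed the threshold of the cosine with edgeR (adjusted p = 0.0576, and from 0.0259 to 0.148 over all alternatives). It was called by DESeq2, with library size, with the replicate block, without the libraries rich in muscle transcripts and without ZT9 replicate 3 and ZT15 replicate 1, and in 9 of 32 fits that left out 1 library. Acsl3 was higher at ZT18 than at ZT6 (log2 fold change 0.93 ± 0.30, adjusted p = 0.0331). The mice had 67.9, 80.3, 55.6 and 51.5 CPM at ZT18 and 47.6, 44, 26.6 and 16 CPM at ZT6. At ZT21 they had 27.2, 33.1, 32.2 and 46 CPM. No mouse of ZT18 overlapped either group. The call against ZT6 was lost without ZT6 replicate 3 or 4 or ZT18 replicate 1 or 2 (adjusted p up to 0.115), and with the 8 libraries of the contrast alone. ZT18 and ZT21 share lane 4, and within that lane Acsl3 was the 1 member called by edgeR (adjusted p = 0.0321, beside 4.06% of all genes called). That call was lost with replicate number as a block, and without ZT18 replicate 1, 2 or 3 or ZT21 replicate 1, 2 or 3.

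Thioesterases release the fatty acid from CoA again. Acot2, the mitochondrial enzyme, had means of 27.3 ± 2.68 CPM at ZT3 and 41.5 ± 10.1 CPM at ZT9 (amplitude 0.23 ± 0.07, peak at ZT11.8 ± 1.16 h, adjusted p = 0.0202). This call was lost with lane and without the libraries rich in muscle transcripts. The mice overlapped, with 31.1, 25, 26.8 and 26.3 CPM at ZT3 and 41.8, 53.7, 29 and 41.5 CPM at ZT9. Reads of Acot2 and of its near-identical neighbour Acot1 may not be fully separated by counting. Acot9, also mitochondrial, moved by an amplitude of 0.10 ± 0.03 (adjusted p = 0.0278), from 40.5 ± 1.88 CPM at ZT15 to 49 ± 8.01 CPM at ZT6. The mice of ZT6 had 50, 38.9, 48.7 and 58.5 CPM and those of ZT15 42.8, 39.9, 38.3 and 40.9 CPM, with overlap. The cosine of Acot9 was called in 5 of 9 alternatives, and its adjusted p ran from 0.00902 to 0.181. It was lost with library size, no filter, lane and without the libraries rich in muscle transcripts. Acot11, known from brown fat as a thioesterase that opposes heat production, had an amplitude of 0.41 ± 0.17 that was not called (adjusted p = 0.133), with an SD of 0.69 between mice of one time point, and 20.9% of its exonic bases lie antisense to Fam151a. Acot13 had an amplitude of 0.04.

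At the entry to the mitochondrion, Cpt1a had the smallest p of all members in the cosine test. Cpt1a, the liver isoform of CPT1 (chr19:3322334-3385733, plus strand), is scarce in this tissue at 16.8 CPM on average, from 141 to 406 reads per library. At ZT0 the mice had 9.05, 12.3, 10.2 and 11.6 CPM. At ZT9 they had 19.9, 23, 22.5 and 22.8 CPM, and at ZT18 13, 12.9, 14.5 and 13.1 CPM. Neither ZT0 nor ZT18 overlapped ZT9. The mean went from 10.8 ± 1.43 CPM at ZT0 to 22 ± 1.47 CPM at ZT9, a ratio of 2.05, with an amplitude of 0.43 ± 0.05 and a peak at ZT9.39 ± 0.418 h (adjusted p = 1.27e-07). Time of day held 87.8% of the variance of log2 Cpt1a between the 32 mice, compared with a median of 41.1% over all genes tested.

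Cpt1a was higher at ZT12 than at ZT0 (log2 fold change 0.86 ± 0.10, adjusted p = 1.42e-06) and lower at ZT18 than at ZT6 (-0.64 ± 0.10, adjusted p = 7.79e-05). Within lane 2, which holds ZT0, ZT3 and ZT6, it was the 1 member of 34 called by edgeR (adjusted p = 0.00118, beside 12.7% of all genes called). DESeq2 called 4 members there, Cpt1a, Acsl1, Cpt2 and Slc27a1, beside 19.1% of all genes, and edgeR called 4 without ZT0 replicate 4, beside 21.3% of all genes. In that lane the mean rose from 10.8 ± 1.43 at ZT0 to 16.6 ± 1.28 at ZT3 and 20.8 ± 2.24 CPM at ZT6, and no mouse of ZT0 reached a mouse of ZT3. With lane in the model the adjusted p of its cosine was 7.35e-06, and over all alternatives it did not exceed 0.000761.

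Cpt1b, the muscle isoform of CPT1 and the one usually ascribed to brown fat, was called by neither the cosine nor the test of the 8 time points. Its means lay between 10.7 ± 0.847 CPM at ZT21 and 14.2 ± 1.79 CPM at ZT3. The mice of ZT3 had 16.6, 12.3, 14.5 and 13.6 CPM and those of ZT21 10.3, 12, 10.2 and 10.5 CPM. These mice did not overlap, and the means differed by a ratio of 1.33, but the test of the 8 time points did not call Cpt1b (adjusted p = 0.26). The cosine had an amplitude of 0.04 ± 0.06 (adjusted p = 0.788), and the upper 95% limit of the fitted cosine was 1.25-fold from trough to peak. On the length-corrected scale both isoforms were the lowest members, at 4.35 CPM per kb for Cpt1b and 3.88 for Cpt1a. For Cpt1b this level rests on an annotation in which 81.4% of its exonic bases are shared with the read-through gene Gm44502, whose identifier was not in the count table, so reads lost to it are not known. The genes of the next steps did not pass the cosine test with edgeR. Cpt2, the inner membrane transferase, averaged 410 CPM, the carnitine carrier Slc25a20 408 CPM and the malonyl-CoA decarboxylase Mlycd 74.9 CPM. Of these, Slc25a20 was close to the threshold (amplitude 0.14 ± 0.05, adjusted p = 0.056). It was called in 3 of 9 alternatives, DESeq2 among them, when ZT0 replicate 1 or 3, ZT9 replicate 2 or ZT15 replicate 1 was left out, and by JTK with its exact null (P = 0.0238). The JTK call had an adjusted p of 0.0759 and was lost in some fits that left out 1 library. Beside lane the cosine of Slc25a20 had an adjusted p of 0.857.

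**Figure D2:**
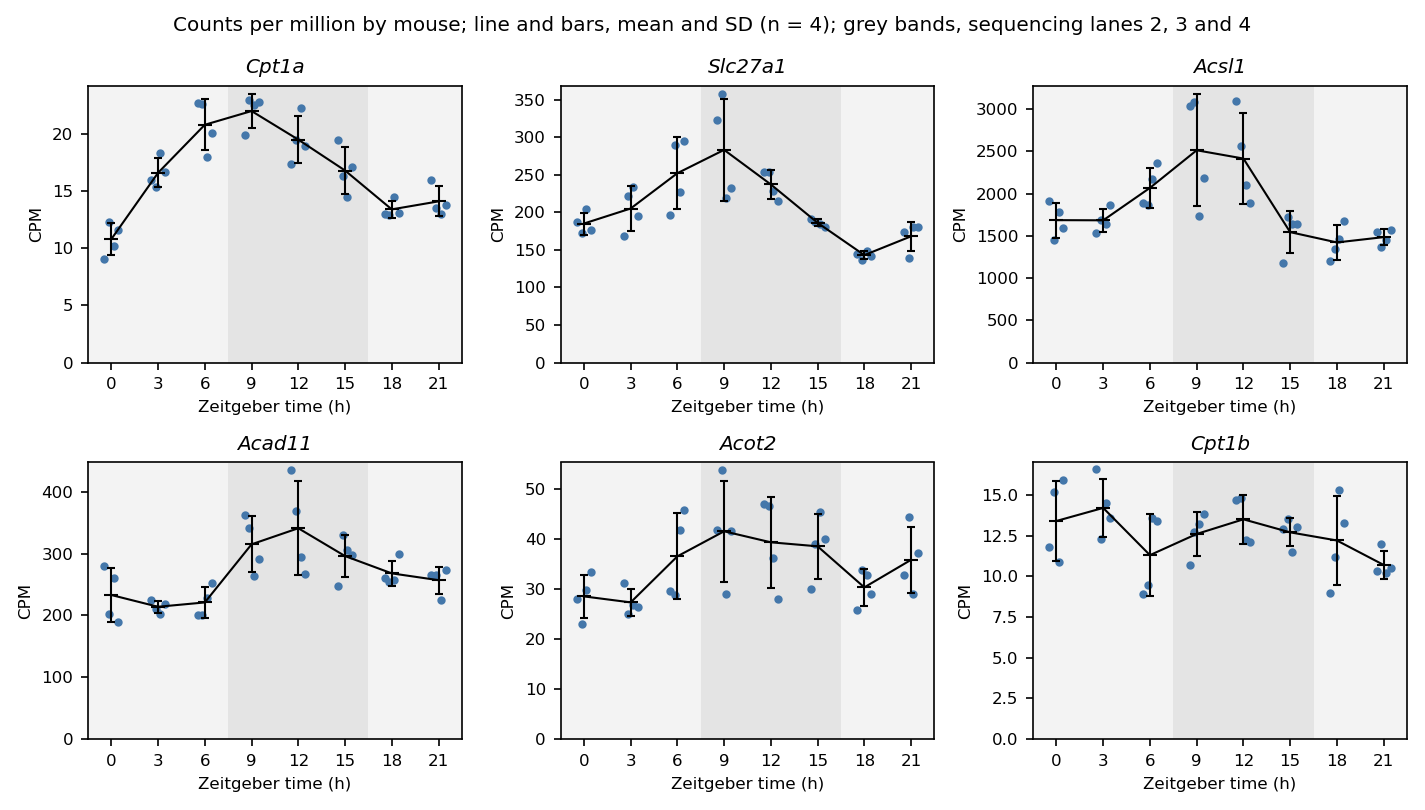
Level (CPM, vertical axes from 0) against Zeitgeber time (h) for 6 members, with 1 point per mouse and the mean and SD of 4 mice as a line with bars. Cpt1a, Slc27a1 and Acsl1 are highest at ZT9, Acad11 is highest at ZT12, and Cpt1b stays between 10.7 and 14.2 CPM on average, across bands that mark lanes 2, 3 and 4.

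The 3 members called both with and without lane in the model, Slc27a1, Acsl1 and Cpt1a, peaked within the same part of the light phase, between ZT7.94 and ZT9.39. The bases before their start sites are shown because these genes peaked in the same part of the day, from the RefSeq promoter table of GRCm38.p6. The Acsl1 window precedes the annotated start of its gene, and those of Cpt1a and Slc27a1 belong to start sites inside the annotated genes, between exons. The Cpt1a window was searched over 250 bases and is printed up to the next annotated exon (234 bases). Of 4 motifs searched on both strands, capitals mark the 3 short ones: CACGTG (an E-box, the site of CLOCK:BMAL1 and related factors), TTANGTAA (a looser form of the D-box of PAR bZIP factors and NFIL3) and AGGTCA (a nuclear receptor half-site). The other one was DR1, a direct repeat of such half-sites that can overlap AGGTCA.
Cpt1a, chr19:3323051-3323284, plus strand: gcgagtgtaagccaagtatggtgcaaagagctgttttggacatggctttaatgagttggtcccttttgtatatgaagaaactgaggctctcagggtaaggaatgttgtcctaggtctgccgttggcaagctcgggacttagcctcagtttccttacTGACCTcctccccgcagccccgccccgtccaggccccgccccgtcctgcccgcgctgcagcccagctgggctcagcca
Slc27a1, chr8:71570344-71570593, plus strand: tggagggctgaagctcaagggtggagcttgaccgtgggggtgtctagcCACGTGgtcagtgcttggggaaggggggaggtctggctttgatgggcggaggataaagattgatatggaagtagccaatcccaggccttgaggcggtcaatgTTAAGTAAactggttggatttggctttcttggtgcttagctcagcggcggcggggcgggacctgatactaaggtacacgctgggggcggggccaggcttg
Acsl1, chr8:46470787-46471036, plus strand: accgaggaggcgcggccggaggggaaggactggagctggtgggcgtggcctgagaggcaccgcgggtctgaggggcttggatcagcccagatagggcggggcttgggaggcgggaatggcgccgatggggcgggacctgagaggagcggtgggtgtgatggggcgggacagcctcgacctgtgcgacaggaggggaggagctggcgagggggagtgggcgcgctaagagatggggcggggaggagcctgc
The Slc27a1 window, at an alternative start site that lies between exons of longer transcripts, held CACGTG and a D-box-like match, TTAAGTAA, and the window before its first start site held none of the motifs. Of the Slc27a1 windows, the one that held motifs is shown. The Cpt1a window held 1 half-site, read on the minus strand. The Acsl1 window held none, nor did the other Acsl1 window (chr8:46490716-46490965), which is not shown. Of 32851 windows in the table, all searched over 250 bases, 6.02% held CACGTG, 2.06% TTANGTAA, 14% AGGTCA and 0.338% the direct repeat, which no member window held. Among the 28 members with a window, CACGTG occurred for Slc27a1 and Acot11, TTANGTAA for Slc27a1 and Acot9, and AGGTCA for Cpt1a, Acadvl, Acadm, Echs1 and Cd36. A match of letters is not a bound site.

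The acyl-CoA dehydrogenases take the first electrons from the chain. Those for very long, long, medium and short chains, Acadvl, Acadl, Acadm and Acads, were not called by the cosine, with amplitudes of 0.04 to 0.06, nor was Acad9 (0.07), better known as an assembly factor of complex I. Of these, Acads was called in 1 of 9 alternatives, with library size as the scaling. Acadl, the third most abundant member per kilobase, ran from 2000 CPM at ZT3 to 2326 CPM at ZT0, a ratio of 1.16 (adjusted p = 0.33). For Acadvl 42.9% of the exonic bases lie antisense to another gene, and it is not stated whether the counting used the strand.

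The called dehydrogenases, Acad11 and Acad10, are less studied members of the family. Acad11 (chr9:104063377-104127725, plus strand) was at 435, 369, 295 and 267 CPM at ZT12 and at 225, 210, 202 and 218 CPM at ZT3. No mouse of ZT12 overlapped a mouse of ZT3. The amplitude of Acad11 was 0.29 ± 0.05 with a peak at ZT13.4 ± 0.688 h (adjusted p = 0.00021), and it rose from ZT0 to ZT12 by 0.55 ± 0.13 (log2, adjusted p = 0.00567). Mice of ZT0 reached 280 CPM and overlapped those of ZT12, and this call was lost with the 8 libraries alone (adjusted p = 0.0885, the highest over the alternatives, the lowest being 0.000678). Its means were 233, 214 and 221 CPM in the 3 time points of lane 2, 315, 341 and 296 CPM in lane 3, and 268 and 257 CPM in lane 4. The step thus fell between lanes, no lane showed a difference within itself (adjusted p = 0.735, 0.748 and 0.732), and with lane in the model the cosine had an adjusted p of 0.973. Whether the step between ZT6 and ZT9 belongs to time or to lane cannot be told apart. Acad10 was at 60.3, 47.6, 51.8 and 62 CPM at ZT0 and at 67.3, 66.7, 68.8 and 75.3 CPM at ZT12. Those mice did not overlap (log2 fold change 0.33 ± 0.10, adjusted p = 0.026), but this call was lost without ZT0 replicate 2 or 3 or ZT12 replicate 3 or 4 (adjusted p up to 0.111), with no filter and with the 8 libraries alone. Its cosine (amplitude 0.12 ± 0.04, adjusted p = 0.0276) was lost without ZT0 replicate 2 or 3, ZT12 replicate 4 or ZT15 replicate 2 (up to 0.0648), with no filter, with lane and without the libraries rich in muscle transcripts.

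None of the 7 spiral genes was called by the cosine with edgeR or DESeq2, and none had an unadjusted p under 0.05 with either tool. They are Hadha and Hadhb (the subunits of the trifunctional protein), Hadh, Echs1, Acaa2 (the matrix thiolase), and Eci1 and Decr1, which handle unsaturated chains. Echs1, the enoyl-CoA hydratase, was called in 2 of 9 alternatives, with library size as the scaling and without ZT9 replicate 3 and ZT15 replicate 1, and also without ZT15 replicate 1 alone (adjusted p from 0.0138 to 0.676 over all alternatives). Amplitudes in the spiral were 0.02 to 0.06, and the upper 95% limit of the fitted cosine from trough to peak, which does not bound changes of another shape, was 1.09-fold for the tightest and 1.19-fold for the widest of them. Acaa2, the second most abundant member per kilobase (1210 CPM per kb), shows the scale. It was at 1938, 1652, 1694 and 1724 CPM at ZT3 and at 1719, 2032, 1978 and 2068 CPM at ZT15, where its mean was highest. These mice overlapped, and the means of 1752 ± 128 and 1949 ± 158 CPM differed by a ratio of 1.11 (cosine adjusted p = 0.768).

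The electron transfer flavoprotein, made of the subunits Etfa and Etfb, passes these electrons to its ubiquinone oxidoreductase Etfdh. None of the 3 genes was called by the cosine with edgeR, 2 had an unadjusted p under 0.05, and DESeq2 called 1 of them, Etfb. With edgeR Etfb lay just outside the threshold (amplitude 0.12 ± 0.04, adjusted p = 0.0516). Of its exonic bases, 58.2% are shared with the read-through gene Gm45233, which received 0 or 1 read per library, and its level of 62.9 CPM beside 1055 CPM for Etfa may be affected by reads that fit both genes. Over the 15 uncalled members of the dehydrogenases, spiral and electron carriers, the upper 95% limits of the fitted cosine from trough to peak ran from 1.09-fold to 1.3-fold.

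**Figure D3:**
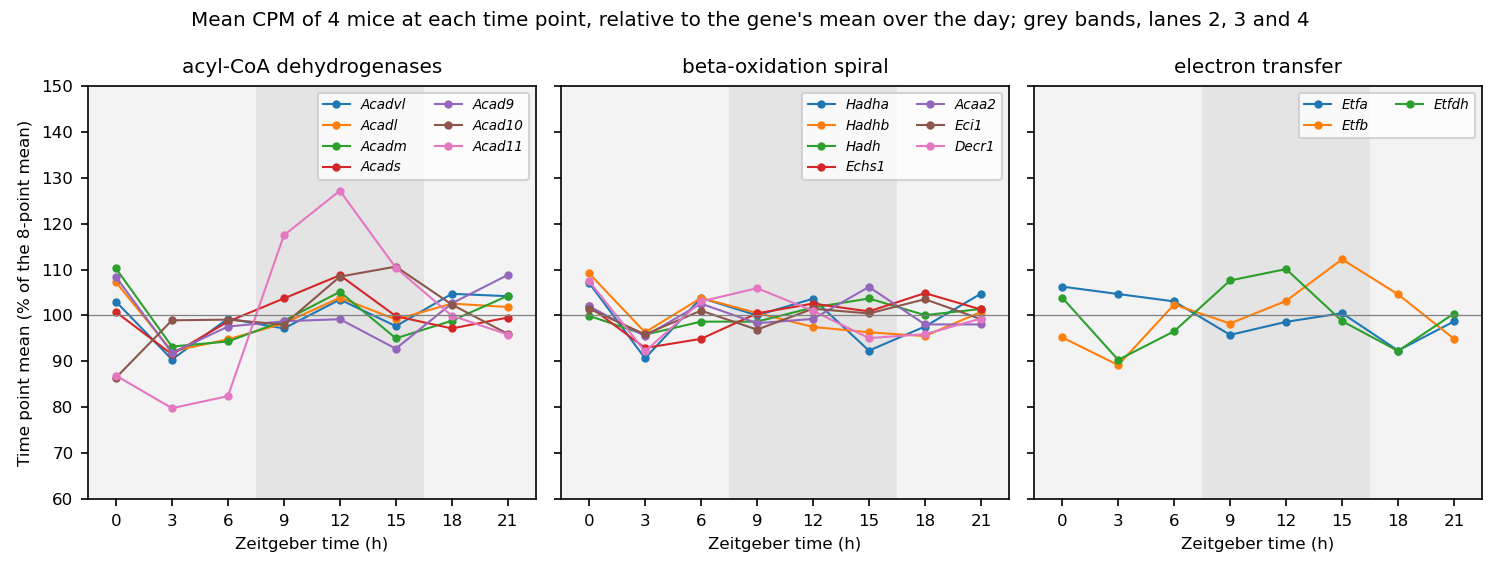
Mean level of 4 mice at each Zeitgeber time (h, horizontal axis) as a percentage of the gene's mean over the 8 time points (vertical axis, from 60 to 150), for dehydrogenases, spiral enzymes and electron carriers. Most lines stay near 100 with their lowest point at ZT3, and Acad11 stands out with its highest mean at ZT12.

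Many of these genes had their lowest mean at the same time point. Of the 17 dehydrogenases, spiral enzymes and electron carriers, 14 had their lowest mean at ZT3 (82.4%), beside 13.1% of all genes tested. These genes also deviated together between mice of one time point, so they are not separate observations and a few libraries can set the lowest mean of many of them. The summed level of all 34 members was 29508 ± 2154 CPM at ZT0 and 25864 ± 898 CPM at ZT3, and its range of 25240 to 27197 CPM at ZT3 lay below that of 27610 to 32044 CPM at ZT0. The other time points overlapped ZT3, and single libraries of ZT9 (24835 CPM) and ZT15 (22904 CPM) lay below it. Per kilobase the sum was also lowest at ZT3 (15553 ± 514) and highest at ZT0 (17822 ± 895 CPM per kb). Fabp4, which is not among the 17, held 39.8% of the members' sum per kilobase. It too was lowest at ZT3 (5426 CPM) and highest at ZT0 (6519 CPM). Gene by gene, none of the 17 differed between ZT0, ZT3 and ZT6 within lane 2 by edgeR, beside 12.7% of all genes. None had an unadjusted p under 0.05 there, and DESeq2 called none, with 2 at an unadjusted p under 0.05. Beside it, the 8 brown adipocyte markers summed to 5427 to 6800 CPM at ZT0 and 5288 to 5768 CPM at ZT3. The 6 macrophage markers summed to 50 to 79 and 75.2 to 127 CPM, and the 5 stroma markers to 345 to 498 and 609 to 923 CPM. No marker of these lists was at 0 throughout. The part of these in the low point was not tested.

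Between the ends of the light phase, ZT12 against ZT0, 4 of 34 members were higher (Cpt1a, Acad10, Acad11 and Acsl1), beside 7.71% of all genes. DESeq2 called 5 higher, with Slc27a1 added, and called 16.7% of all genes in either direction. By edgeR Slc27a1 had a log2 fold change of 0.36 ± 0.13 (adjusted p = 0.064). It was called with library size, as was Acot2, and with the 8 libraries alone. No member was lower by edgeR or by DESeq2, beside 8.15% of all genes by edgeR, although 2 had an unadjusted p under 0.05 with each tool. Acsl5 (log2 fold change -1.13, adjusted p = 0.0809) was called lower without ZT0 replicate 4 or without ZT15 replicate 1 (adjusted p from 0.0316 to 0.204 over all alternatives). From the middle of the light to the middle of the dark phase, ZT18 against ZT6, 4 members were lower (Slc27a1, Acsl1, Cpt1a and Acot9), beside 8.68%, and Acsl3 was higher, beside 8.18%. The call of Acot9 (adjusted p = 0.0392) was lost whichever library of ZT6 or ZT18 was left out, except for ZT6 replicate 2, and in 3 of 7 alternatives (adjusted p from 0.00241 to 0.183 over all). In lane 3, with ZT9, ZT12 and ZT15, no member differed by edgeR (1.75% of all genes did), 3 had an unadjusted p under 0.05, and DESeq2 called 2, Slc27a1 and Acsl1, beside 5.31% of all genes.

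Mice killed at the same time differed from each other, and for some members by more than the time of day did. Fabp3 and the genes Acsl5, Acot11 and Acsl3 had SDs of 0.46 to 0.71 (log2) within time points, compared with 0.15 for the median member and 0.20 for the median gene. At 6 of the 8 time points the same mouse was the lowest for Acsl5, Acot11 and Acsl3, and at 4 of these it was the highest for Fabp3. The first mouse of ZT15 had 54.2 CPM of Acsl5, 140 of Acot11 and 22.3 of Acsl3, where the other mice of ZT15 had at least 225, 489 and 43.1 CPM. The third mouse of ZT9 had 72.9, 162 and 19.9 CPM, and the fourth of ZT0 203, 353 and 30.6 CPM, each the lowest of its time point for all 3 genes. Fabp3 was the reverse in these 3 mice, at 533, 479 and 333 CPM, each the highest of its time point. At ZT3 and ZT18 it was another mouse that had the most Fabp3.

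**Figure D4:**
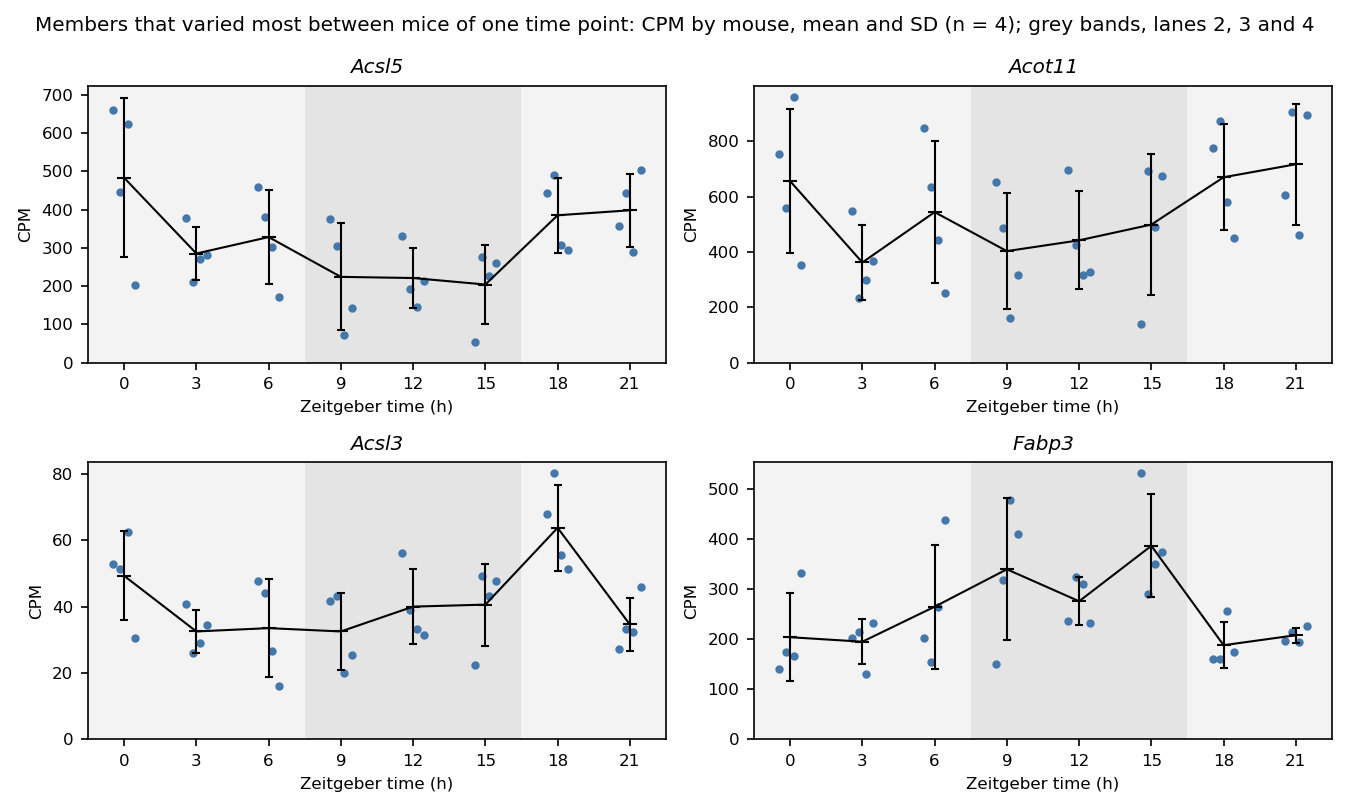
Level (CPM, vertical axes from 0) against Zeitgeber time (h) for the 4 members with the largest SD between mice of one time point, with 1 point per mouse and the mean and SD of 4 mice. Bars are wide at most times, and at ZT15 the lowest mouse of Acsl5, at 54.2 CPM, is the highest of Fabp3, at 533 CPM.

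To describe this, the deviation of each library from the mean of its time point (log2 CPM) was compared between all 561 pairs of members, permuting mice within time points 100000 times, two-sided. With adjustment over the 561 pairs, 237 were positively and 19 negatively related. The median r over the 561 pairs was 0.394, and 0.252 with library size alone as the scaling. Acsl5 and Acot11 had r = 0.961 (rho = 0.945, permutation p = 1e-05 for both, the smallest these permutations can give, adjusted p = 0.000137), and r = 0.940 without the 2 farthest mice. Within lanes 2, 3 and 4 their r was 0.942, 0.976 and 0.965 (exact p = 0.000217, 0.000362 and 0.00347). Acsl3 went with Acot11 (r = 0.927, rho = 0.909, permutation p = 1e-05 for both, adjusted p = 0.000137), with 0.916 without the 2 farthest mice and 0.955, 0.968 and 0.749 within the lanes (exact p = 7.23e-05, 0.000506 and 0.0625).

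Fabp3 was opposed to Acsl5, with r = -0.747 (permutation p = 8e-05, adjusted p = 0.000541) and rho = -0.692 (permutation p = 0.00024), or r = -0.701 without the 2 mice farthest from the median of Fabp3. It held in lanes 2 and 3 (r = -0.802 and -0.810, exact p = 0.0151 and 0.00311) and not in lane 4 (r = -0.241, exact p = 0.818). In the same mice the share of reads from mitochondrially encoded genes, 18.5 to 28.2% of a library, went against Acsl5 (r = -0.738, permutation p = 0.00123, rho = -0.661, permutation p = 0.00234, adjusted p = 0.0111 over 63 such relations). That r was -0.646 without the 2 farthest mice, and -0.474, -0.890 and -0.779 within lanes 2, 3 and 4. It went with Fabp3 (r = 0.690, permutation p = 0.00144, rho = 0.604, permutation p = 0.00238, adjusted p = 0.0113, and 0.555 without the 2 farthest), with 0.620, 0.837 and 0.275 within the lanes. The 6 endothelial markers, all detected, with a sum of 729 to 1085 CPM, also went with Fabp3 (r = 0.741, permutation p = 0.00027, rho = 0.701, permutation p = 0.00014, adjusted p = 0.0034, and 0.632 without the 2 farthest), with 0.695, 0.876 and 0.358 within the lanes. They went against Acsl5 (r = -0.627, permutation p = 0.00361, rho = -0.600, permutation p = 0.00397, adjusted p = 0.0253, and -0.634 without the 2 farthest), with -0.651, -0.740 and -0.134 within the lanes. The part of either measure in the relation of the genes was not tested. With the mitochondrially encoded genes removed before scaling, Acsl5 and Fabp3 had r = -0.742. Removal changes the scaling of the other genes and does not hold that share of reads constant.

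**Figure D5:**
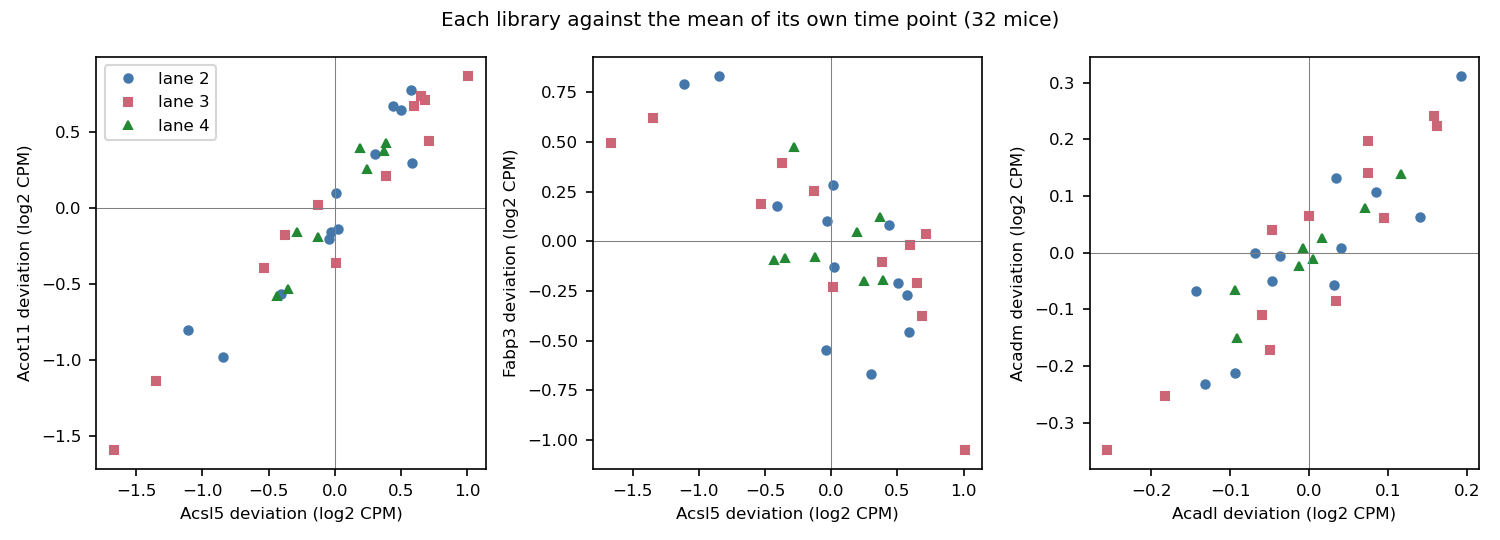
Deviation of each of 32 libraries from the mean of its time point (log2 CPM on both axes) for Acsl5 with Acot11, Acsl5 with Fabp3, and Acadl with Acadm, with lanes 2, 3 and 4 as circles, squares and triangles. Points of Acsl5 and Acot11 and of Acadl and Acadm lie along a rising line (r = 0.961 and 0.895), and those of Acsl5 and Fabp3 along a falling one (r = -0.747).

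The oxidation enzymes mostly deviated together between mice. Among the 136 pairs of the 17 dehydrogenases, spiral enzymes and electron carriers, 118 had a positive r, the median r was 0.623, and 83 were related after adjustment, all 83 positively. Over all pairs of the 8527 genes with at least 10 CPM the median r was 0.007 and 50.8% were positive. Acadl and Acadm had r = 0.895 (rho = 0.871, permutation p = 1e-05 for both, adjusted p = 0.000137, and 0.850 without the 2 farthest mice), with 0.839, 0.924 and 0.955 within the lanes (exact p = 0.0013, 0.000868 and 0.0747). With library size alone as the scaling, the median over the 136 pairs was 0.399. Acadl also went with the summed brown adipocyte markers (r = 0.764, rho = 0.745, permutation p = 2e-05 for both, adjusted p = 0.000945, and 0.758 without the 2 farthest). It went against those of stroma (r = -0.796, rho = -0.765, permutation p = 5e-05 for both, adjusted p = 0.00105, and -0.749 without the 2 farthest). It also went against those of macrophages (r = -0.728, permutation p = 3e-05, rho = -0.733, permutation p = 7e-05, adjusted p = 0.000945, and -0.716 without the 2 farthest), with -0.708, -0.755 and -0.788 in lanes 2, 3 and 4. Within lanes 2, 3 and 4 these were 0.791, 0.785 and 0.645 for the brown adipocyte markers and -0.802, -0.788 and -0.847 for the stroma markers. The part of the cell make-up of each sample in these relations was not tested.

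Cpt1a departed from this block. Within time points it went against Acadl (r = -0.645, permutation p = 0.00212, rho = -0.614, permutation p = 0.00284, adjusted p = 0.00708, and -0.591 without the 2 mice farthest from the median of Cpt1a), with -0.737, -0.680 and -0.265 in lanes 2, 3 and 4 (exact p = 0.0316, 0.0416 and 0.858). Although Cpt1a and Acsl1 peaked within 1 h of each other over the day, among mice of the same time point they were not positively related (r = -0.452, permutation p = 0.0174, rho = -0.470, permutation p = 0.0157, adjusted p = 0.0396). That r was -0.357 without the 2 farthest mice, and -0.717, -0.548 and 0.300 within the lanes. Acsl1 instead went with Acad11 (r = 0.851, rho = 0.856, permutation p = 1e-05 for both, adjusted p = 0.000137, and 0.811 without the 2 farthest), with 0.793, 0.947 and 0.555 within the lanes. Acsl1 also went with the summed brown adipocyte markers (r = 0.705, permutation p = 0.00018, rho = 0.683, permutation p = 0.00045, adjusted p = 0.00283, and 0.645 without the 2 farthest), with 0.698, 0.870 and 0.083 within the lanes. It went against the 5 white adipocyte markers (r = -0.680, permutation p = 0.00036, rho = -0.658, permutation p = 0.00033, adjusted p = 0.00378, and -0.588 without the 2 farthest), with -0.386, -0.808 and -0.661 within the lanes. With the macrophage markers r was -0.592 (permutation p = 0.00671, rho = -0.433, permutation p = 0.026, adjusted p = 0.0423), or -0.371 without the 2 farthest, and -0.628, -0.726 and 0.190 within the lanes. With Cpt1a the stroma markers had r = 0.484 (permutation p = 0.0175, adjusted p = 0.0736). The brown adipocyte markers had r = -0.404 with Cpt1a (permutation p = 0.0543, adjusted p = 0.163). The part of the markers in the relations of Acsl1 and of Cpt1a was not tested.

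Of 29 further genes of the pathway, 28 passed the filter, and Fabp1, the liver binding protein, was at 0 counts in every library. The cosine called 11 of the 28 (39.3%, beside 36.1% of all genes). With lane in the model it called 4 (Slc27a2, Slc22a5, Ppara and Ppargc1a), which is 14.3%, beside 17.2% of all genes. Slc27a2 (FATP2, a very long-chain acyl-CoA synthetase) had the largest amplitude among those called, 0.87 ± 0.10, with a peak at ZT7.37 ± 0.435 h (adjusted p = 1.25e-07). Its mice stood at 194, 178, 210 and 272 CPM at ZT6 and at 34.6, 37.9, 59.8 and 72.9 CPM at ZT18, with no overlap. It was thus high in the same part of the day as Slc27a1 and Acsl1, and it was called beside lane.

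Ppara, the nuclear receptor of fatty acids that acts on many oxidation genes, had a peak at ZT8.58 ± 1 h (amplitude 0.60 ± 0.16, adjusted p = 0.0105). Its mice had 104, 191, 269 and 287 CPM at ZT9 and 49.9, 27.3, 44.2 and 145 CPM at ZT0, and the highest mouse of ZT0 overlapped the lowest of ZT9. Acot1, the cytosolic thioesterase, reached 7.63, 8.22, 0.498 and 1.39 CPM at ZT9, against 1.08, 1.09, 1.16 and 0.647 CPM at ZT3, and the mice of ZT9 fell on both sides of those of ZT3 (amplitude 0.75 ± 0.23, adjusted p = 0.00121). Slc22a5, the carnitine transporter of the plasma membrane, rose from 43.1 ± 5.84 CPM at ZT0 to 77.5 ± 9.56 CPM at ZT12 (log2 fold change 0.85 ± 0.18, adjusted p = 0.00192), with mice at 51, 43.8, 39 and 38.4 CPM and at 90.4, 79.1, 71 and 69.6 CPM. Slc25a29, a mitochondrial carrier of basic amino acids first described as a carnitine carrier, was scarce, with 5.99, 2.07, 3.5 and 2.46 CPM at ZT15 and 1.67, 0.769, 2.08 and 1.11 CPM at ZT6, which overlapped (amplitude 0.33 ± 0.12, adjusted p = 0.0476). This call was lost with the replicate block, with library size as the scaling, with no filter, with lane, without the libraries rich in muscle transcripts, and in most fits that left out 1 library. The regulators Pparg, Ppard, Ppargc1a, Ppargc1b and Rxra were not called by the cosine without lane, and Esrra and Nrip1 were. Nrip1 lay just inside the threshold (adjusted p = 0.049) and was lost with library size as the scaling, with no filter, with lane, without the libraries rich in muscle transcripts, and in most fits that left out 1 library.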

How the data were processed

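RNA-sequencing libraries of iBAT from 32 mice (8 time points, 4 mice each, 1 library per mouse) were analysed. The deposited values are raw read counts per Ensembl gene, made by the authors with GSNAP and HTSeq 0.6.1 on mm10 with an Ensembl annotation, per the submitters' processing notes and the study's methods. Libraries were stranded and whether counting used the strand is not given in the sources used here.

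Counts were filtered with filterByExpr (group: time point) and scaled with TMM factors in edgeR 4.0.16 (R 4.3.3). Quasi-likelihood tests with Benjamini-Hochberg adjustment over 15505 genes were run for a 24 h cosine, for the 8 time points, for ZT12 against ZT0, for ZT18 against ZT6 and for the time points within each lane. The threshold was 0.05. JTK was an own implementation with 15 templates of 21 and 24 h. Amplitudes, SEs and peak times come from a least-squares cosine on log2 CPM (prior count 2), and 95% limits are the amplitude plus 1.96 SE. Gene coordinates and lengths (exons of protein-coding transcripts of the basic set) are from GENCODE M21, GRCm38. The edgeR tests and JTK were also run on simulated data with known cosines, and the outcome is not given here. Alternatives were DESeq2 1.42.0 and its size factors, library size, no filter, mitochondrially encoded genes removed, a replicate block, lane as a factor, the 8 libraries of a contrast alone, and each library left out. The subset without muscle transcripts and that without 2 libraries were chosen after seeing the data.

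The members and gene lists were chosen with earlier results of these data known. Values per mouse are given for the 10 members with the largest amplitude among those called, the 2 members most abundant per kilobase, Cpt1a and Cpt1b, and the 5 further pathway genes with the largest amplitude among those called. Acsl3, Acot11 and the correlated pairs were chosen for description after their values were seen. All 32 libraries were kept: no pair of the same time point agreed within sampling noise. Replicate numbers do not pair the mice. At this depth of 16300770 to 18254659 counts per library, the lowest member counts were 141 reads for Cpt1a and 149 for Cpt1b.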

Additional observations from a re-analysis of the deposited data

Results flagged for a closer look

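In 272 sets of 4 mice (34 members at 8 time points), 19 held 1 mouse so far from its 3 companions that its gap exceeded Dixon's 95% critical value. Chance flags about 1 in 20 sets.

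Replicate 1 of ZT15 accounted for 5 of the 19. It was low for Slc25a20 (278 CPM, others 460 to 476), Acadvl (1343, others 1831 to 1870), Hadha (1186, others 1825 to 1909), Echs1 (598, others 742 to 753) and Acsl1 (1179, others 1637 to 1723). In this library mitochondrially encoded genes took 26.7% of the counts, against 22.8 to 23.3% in the other mice of ZT15. Without it, 13 in place of 10 members were called by the cosine, beside 38.6% in place of 36.1% of all genes.

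Replicate 3 of ZT18 was high for Cpt1a (14.5 CPM, others 12.9 to 13.1), Etfb (74.3, others 62.4 to 63.5) and Fabp3 (256, others 160 to 174). Replicate 2 of ZT21 was high for Cpt1b (12 CPM, others 10.2 to 10.5) and Acaa2 (1919, others 1745 to 1773) and low for Slc27a1 (139, others 174 to 180). Replicate 3 of ZT21 was low for Acad11 (225 CPM, others 265 to 273) and Eci1 (432, others 489 to 500).

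Single sets were flagged for Cpt1a at ZT9 (replicate 1 at 19.9 CPM, others at most 23) and for Acadl at ZT9 (replicate 3 at 1874, others 2178 to 2239). Acadl at ZT12 had replicate 1 at 2509 CPM (others 2156 to 2177), and Acad11 at ZT18 replicate 4 at 299 (others 254 to 261). Acaa2 at ZT0 had replicate 4 at 2062 CPM (others 1781 to 1828), and Cd36 at ZT18 replicate 1 at 1660 (others 1817 to 1834).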

How the results depend on the processing

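The cosine called 7 to 13 of the 34 members under 8 of 9 alternatives, and 3 with lane as a factor (10 in the result reported). With the replicate block it called 11, beside 34.7% of all genes, and with lane as a factor 17.2% of all genes were called. Leaving out each library in turn gave 9 to 13 members for the cosine, 5 to 9 for the 8 time points, 7 to 12 for JTK, 2 to 5 for ZT12 against ZT0, 2 to 6 for ZT18 against ZT6, and 8 to 12 further pathway genes. Within lane 2 it gave 1 to 4, within lane 3 0 to 1, and within lane 4 0 to 1. Of all genes, fits that left out 1 library called 32.8 to 38.6% for the cosine and 35.9 to 43% for the 8 time points. For ZT12 against ZT0 they called 10.8 to 17.3%. The reported fits called 12.7%, 1.75% and 4.06% of all genes within lanes 2, 3 and 4. For ZT12 against ZT0 (4 members), the call fell to 2 without ZT0 replicate 2, beside 12.3% in place of 15.9% of all genes. For ZT18 against ZT6 (5 members) it fell to 3 without ZT6 replicate 3 and to 2 without ZT6 replicate 4, ZT18 replicate 1 or ZT18 replicate 2. Within lane 2 (1 member) it rose to 4 without ZT0 replicate 4 and 2 without ZT6 replicate 1, within lane 3 (0) to 1 without ZT9 replicate 3, and within lane 4 it fell to 0 without ZT18 replicate 1, 2 or 3 or ZT21 replicate 1 or 3. Without the libraries rich in muscle transcripts, which leaves 17, the 8 time points gave 2 members. The 8 libraries of a contrast alone gave 2 members for ZT12 against ZT0, beside 8.26% in place of 15.9% of all genes. For ZT18 against ZT6 they gave 3 members, and both fits held fewer samples. DESeq2 called 4 members in lane 2 and 2 in lane 3. The replicate block gave 0 in lane 4, and it left the other counts of members within 1.5 times. JTK with an adjusted p gave 5 members, beside 27.1% of all genes. Of the further pathway genes, 4 were called with lane as a factor, where the peak of Slc25a29 moved from ZT14.1 to ZT22.6 (amplitude 0.39, adjusted p = 0.378) and that of Hsd17b10 from ZT11.2 to ZT17.4 (amplitude 0.04, adjusted p = 0.78). The cause of these changes was not tested. Same-numbered libraries of different time points correlated at a median r of -0.119 over all genes, and 4 of 32 libraries were closest to their own number, so the numbers were not used as pairs. For members at 141 to 406 reads per library, such as Cpt1a, counting error limits the precision.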
